A study of Mus musculus with 48 samples.

Results

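The genes described here are 7 noncoding host genes of small nucleolar RNAs (snoRNAs): Gas5, Snhg1, Snhg3, Snhg5, Snhg6, Snhg8 and Snhg12. They were chosen by symbol, and all 7 were found among the 47643 Ensembl genes that each count table lists. All 7 also passed the filter on low counts that left 14618 genes for testing. The study counted polysome-bound RNA from astrocytes of the mouse dorsal hippocampus, and compared whole astrocytes (Astro) with the thin branches that astrocytes extend around synapses, called perisynaptic astrocytic processes (PAP). Both groups came from the same 3 animals of the line Tg(Aldh1l1-eGFP/Rpl10a) JD130Htz, in which the astrocyte promoter Aldh1l1 drives the ribosomal protein L10a fused to green fluorescent protein. Ribosomes were pulled down through the fluorescent protein, a method called translating ribosome affinity purification. Every animal and compartment was sequenced as 8 technical replicates, which were summed to 6 pooled libraries, 3 per group. The labels read here give no age, sex or treatment, and no pulldown without the transgene was analysed here.

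A snoRNA host gene carries snoRNAs in its introns. Splicing frees the introns, and the snoRNAs cut from them guide chemical changes on ribosomal and other structural RNAs: box C/D snoRNAs guide ribose methylation, and box H/ACA snoRNAs guide pseudouridylation. The spliced exons of a noncoding host keep no long reading frame. They can still be engaged by ribosomes in the cytoplasm, and many are then degraded by nonsense-mediated decay (NMD), the pathway that removes RNAs whose translation stops early. Several hosts begin with a 5′ terminal oligopyrimidine (TOP) tract, a C at the cap followed by a run of C and T. The tract is best known from ribosomal protein and elongation factor mRNAs, whose translation it ties to growth signalling through mTOR. Gas5, growth arrest-specific 5, is the textbook example of such a noncoding TOP RNA.

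The start of each gene is shown first, because hosts of this kind are known for TOP-like starts. Each line holds 60 bases of the coding strand, 5′ to 3′. The capitals mark the longest run of C and T led by a C that begins within 20 bases of the annotated start. In Snhg6 they mark the run at the first base of the transcript, with no search around it. Gas5 has 2 RefSeq starts, and the one with the longer run at its start base is shown. The lines of 6 hosts were read from RefSeq on GRCm38.p6, and Snhg6, with no entry in that table, from the first bases of the GENCODE M21 transcript Snhg6-203.
Gas5: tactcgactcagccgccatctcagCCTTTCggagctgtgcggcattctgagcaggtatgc
Snhg1: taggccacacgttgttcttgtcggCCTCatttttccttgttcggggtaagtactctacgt
Snhg5: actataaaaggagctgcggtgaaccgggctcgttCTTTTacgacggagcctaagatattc
Snhg6: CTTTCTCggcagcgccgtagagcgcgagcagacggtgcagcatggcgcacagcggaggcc
Snhg3: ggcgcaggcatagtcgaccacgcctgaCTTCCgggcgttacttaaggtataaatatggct
Snhg8: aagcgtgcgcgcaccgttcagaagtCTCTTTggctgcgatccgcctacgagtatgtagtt
Snhg12: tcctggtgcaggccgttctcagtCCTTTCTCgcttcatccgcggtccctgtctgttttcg

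These windows lie at chr1:161035141-161035200 on the plus strand for Gas5, chr19:8723462-8723521 (plus) for Snhg1 and chr9:88522863-88522922 (minus) for Snhg5. Those of Snhg3, Snhg8 and Snhg12 lie at chr4:132353652-132353711 (minus), chr3:123508302-123508361 (minus) and chr4:132308653-132308712 (plus). The Snhg6 line begins at base 9944118 of chromosome 1 and runs along the minus strand. In Snhg6 and Snhg8 the run began at the annotated start itself, with lengths of 7 and 6 bases. In Gas5 the run of 6 bases began 1 base before the annotated start, so that 5 of its bases followed from the start base. The Snhg12 run, with 8 bases, began 2 bases before its annotated start. The Snhg3 run of 5 bases began at base 3 of the transcript and the Snhg5 run of 5 bases at base 10. Snhg1 had the shortest run, 4 bases, of which 3 followed from the start base.

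How far these starts stand out depends on which annotated base is read. A run of C followed by at least 4 C or T at the start base, read on the coding strand, was held by 2.51% of 32851 RefSeq starts. Of the 7 RefSeq starts of the 6 hosts with an entry, 2 held it, those of Gas5 and Snhg8. Within 20 bases of the start, 49.4% of all RefSeq starts held such a run, so its presence there is common. At the outermost annotated start of the gene it was held by 1.90% of 55450 GENCODE genes and by 2 of the 7 hosts, Snhg6 and Snhg8. At any annotated transcript start, a count added after the data had been seen, it was held by 4.54% of the same genes and by 6 of the 7 hosts, Snhg1 being the exception. The number of annotated transcripts was 25 for Gas5, 18 for Snhg1, 10 for Snhg12 and 3 to 6 for the other hosts. These counts describe letters in the annotation, not transcript starts measured in these cells.

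The libraries differed in depth in a way that touches all host genes. Astro totals ran from 18707844 to 20293538 counts and PAP totals from 1829962 to 2980984, with a median ratio of 10.6. A gene with 3 counts stood at 0.152 to 0.176 CPM (counts over the effective library size given by the TMM factors of edgeR) in Astro and at 0.991 to 1.55 CPM in PAP. The biological coefficient of variation was 0.335 among Astro and 1.61 among PAP libraries. The 10 astrocyte markers summed to 22305 to 30234 CPM in Astro and 3465 to 12223 CPM in PAP, with none at 0. The 8 markers of B and plasma cells summed to 123 to 143 CPM in Astro and 2971 to 6317 CPM in PAP, with Cd79a and Ighm at 0 in every PAP library. Erythroid markers reached 456 CPM in PAP of animal 1, and neuronal, oligodendrocyte, microglial and endothelial sums overlapped between the groups. Of 8 microglial markers 4 (Cx3cr1, P2ry12, Tmem119 and Aif1) were at 0 in every PAP library, as were Cldn5 and Itm2a of 6 endothelial markers. By edgeR at an adjusted p under 0.05, 5.92% of all genes were called higher in PAP and 15.4% lower. Of 7 microglial markers tested, 0 were called higher and 3 lower, and of 10 astrocyte markers 0 and 5. Of 7 B and plasma cell markers tested these were 5 and 1, of 10 neuronal markers 1 and 1, and of 3 endothelial markers 0 and 1. None of the 9 oligodendrocyte or 5 erythroid markers was called. The part of these other cells, and of depth, in the host gene values was not tested. In bulk pulldowns like these, fewer cells of a type and less RNA per cell cannot be told apart.

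As a group the host genes made up a larger share of the reads in PAP. The 7 genes together took 0.0235%, 0.0201% and 0.0187% of all counts in Astro of animals 1 to 3, and 0.0934%, 0.0782% and 0.0796% in PAP. The Astro and PAP shares did not overlap. Gas5 alone gave most of these counts, 61.4% to 65.5% of them in Astro and 61.5% to 64.9% in PAP. Of the 7 hosts, 2 were called higher in PAP, Gas5 and Snhg8, beside 5.92% of all genes tested. None was called lower, beside 15.4% of all genes, by the quasi-likelihood test of edgeR with a Benjamini-Hochberg adjusted p under 0.05. At an unadjusted p under 0.05 the counts were 4 higher and 0 lower, beside 9.39% and 21.5% of all genes, and the Wald test of DESeq2 called 5 higher and 0 lower, beside 11.5% and 23.6% of all genes. The fitted log2 fold change was above 0 in 7 of 7 hosts, beside 39.1% of all genes, with a median of 1.86 beside -0.53 over all genes tested. With voom that of Snhg12 was below 0, at -0.64. In 5 of 7 hosts every PAP library lay above every Astro library, as in 10.9% of all genes. With the animal as a block, which pairs the compartments of each mouse, 0 of 7 were called, beside 0.876% of all genes called higher and 0.0342% lower, 2 of 7 were higher at an unadjusted p under 0.05, beside 5.42%, and the median was 1.87 beside -1.63.

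**Figure D1:**
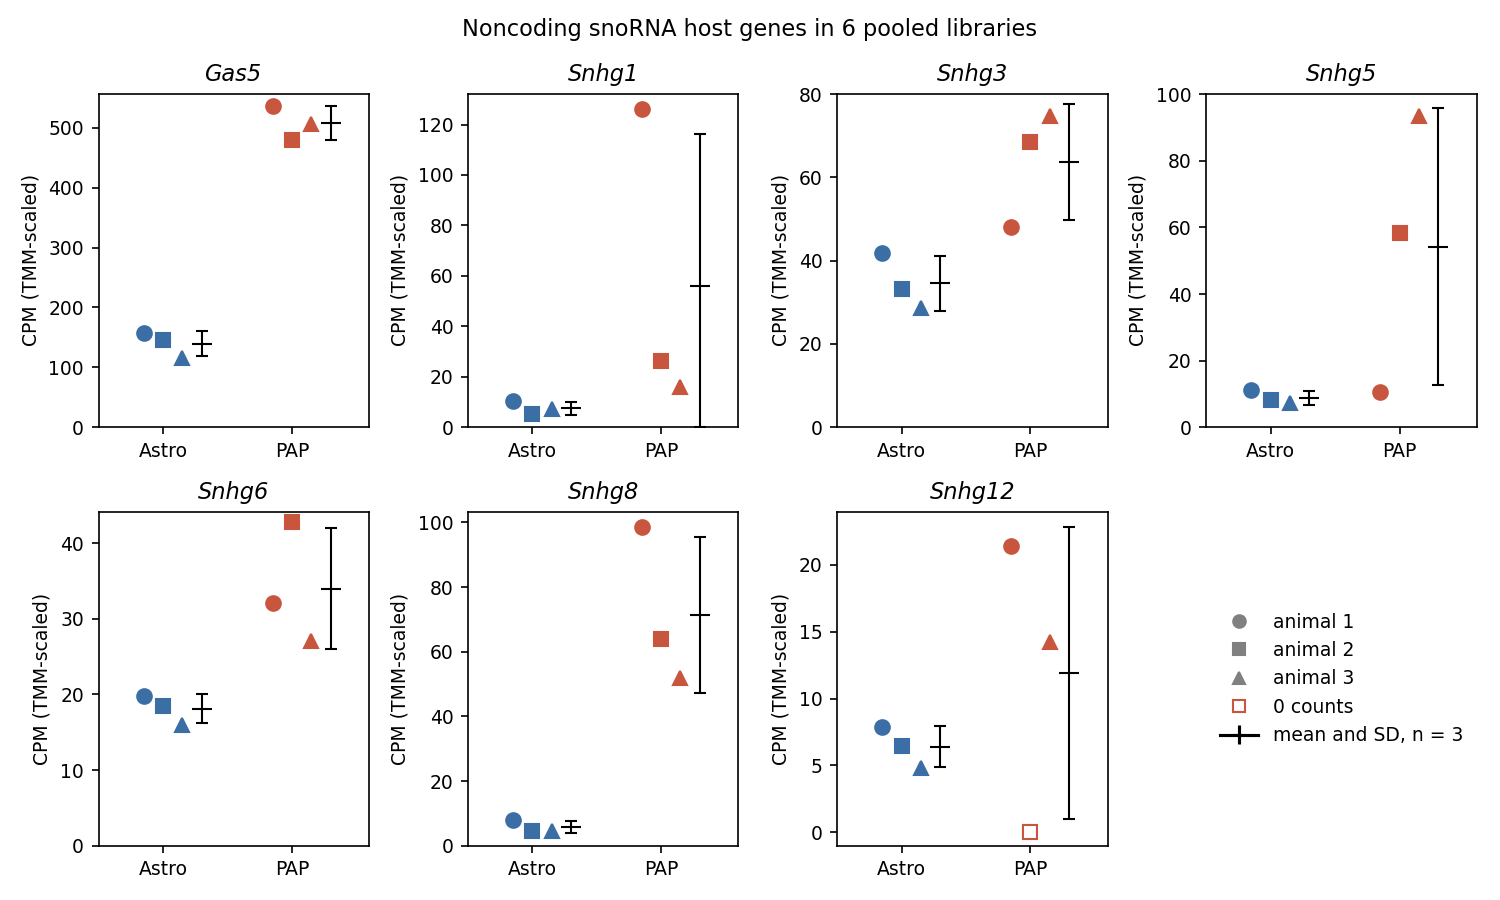
TMM-scaled CPM of each host gene (vertical axes, linear, with their own ranges) in the Astro and PAP libraries of animals 1 to 3 (marker shapes), with the mean and SD of 3 libraries beside the points; the lower bar of Snhg1 in PAP ends at 0, since its SD exceeds its mean. The PAP points of Gas5, 479 to 536 CPM, sit close together above the Astro points, those of Snhg1 and Snhg5 spread widely, and Snhg12 has 0 counts in PAP of animal 2 (open square).

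Gas5 hosts a series of box C/D snoRNAs and lies at chr1:161034422-161038539 on the plus strand of GRCm38. It had 2927, 2464 and 2292 counts in Astro of animals 1 to 3 and 1051, 930 and 1534 in PAP, where the libraries are far smaller. Scaled, these are 157, 145 and 116 CPM in Astro and 536, 479 and 507 CPM in PAP. All PAP libraries were above all Astro libraries. Mean levels were 139 ± 20.9 CPM in Astro and 508 ± 28.5 CPM in PAP (SD, n = 3). Gas5 was 3.64-fold higher in PAP. On the log2 scale the difference was 1.86 ± 0.26 (SE), and the adjusted p was 0.0168 in the edgeR quasi-likelihood test. Within animals 1, 2 and 3 the ratio of PAP to Astro was 3.41, 3.32 and 4.36. With the animal as a block the log2 fold change was 1.87 ± 0.40 and the adjusted p 0.162 by edgeR. Without any single Astro library the adjusted p by edgeR was 0.0672 to 0.0864, past the threshold in none of those fits. Those fits called far fewer genes of any kind, 0.881%, 0.954% and 1.05% of all genes higher without Astro of animals 1, 2 and 3.

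Gas5 was even between the PAP libraries. Its coefficient of variation over the 3 PAP libraries was 5.61%, and 13 of 550 genes within 2-fold of its PAP level had a lower one; the median among them was 33.0%. This comparison was added after the values had been seen. Zbtb37, a zinc finger gene on the opposite strand that overlaps Gas5, had 157, 111 and 52 counts in Astro and 61, 0 and 0 in PAP, far below Gas5. Between the 8 technical replicates of each library, Gas5 counts spread as counting noise would give, with dispersion indices of 0.556 to 1.29. Other hosts spread more in some libraries. The index of Snhg8 ran from 0.714 in PAP of animal 1 to 3.32 in Astro of animal 1, and was 2.27 in PAP of animal 2. That of Snhg6 reached 3.01 in Astro of animal 1 and that of Snhg3 2.33 in Astro of animal 2.

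Snhg1 hosts box C/D snoRNAs too, 8 of them in the annotation, and lies at chr19:8723475-8726443 (plus). It had 10.2, 5.11 and 7.11 CPM in Astro and 126, 26.3 and 15.9 CPM in PAP. Every PAP library was above every Astro library, but PAP of animal 1 stood apart from the other PAP libraries. The means were 7.46 ± 2.54 CPM in Astro and 55.9 ± 60.5 CPM in PAP (SD, n = 3). The log2 fold change of 2.90 ± 1.04 did not pass the test, with an adjusted p of 0.109 by edgeR. The ratio within animals fell between 2.23 in animal 3 and 12.4 in animal 1. Without PAP of animal 3 the log2 fold change was 3.28, with an adjusted p of 0.0427 by edgeR, in a fit that called 7.57% of all genes higher. Without PAP of animal 1 it was 1.45, with an adjusted p of 0.163 by edgeR. The start of Slc3a2, which encodes the heavy chain of amino acid transporters, lies 106 bases from that of Snhg1, and its log2 fold change was -1.75 with an adjusted p of 0.377 by edgeR.

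Snhg5, host of Snord50a and Snord50b at chr9:88521050-88522929 (minus), varied widely between animals in PAP. It had 11.2, 8.10 and 7.26 CPM in Astro and 10.7, 58.2 and 93.5 CPM in PAP. PAP of animal 1 lay within the Astro range, and PAP of animals 2 and 3 lay above it. The means were 8.86 ± 2.09 and 54.2 ± 41.6 CPM (SD, n = 3), and the ratio of PAP to Astro was 0.954, 7.19 and 12.9 in animals 1 to 3. Its log2 fold change of 2.61 ± 0.96 had an adjusted p of 0.118 by edgeR. Without PAP of animal 1 it was 3.05, with an adjusted p of 0.0233 by edgeR, in a fit that called 5.75% of all genes higher. Without PAP of animal 3 it was 1.89, with an adjusted p of 0.158 by edgeR. Animal 1 was thus the highest PAP library for Snhg1 and the lowest for Snhg5.

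Snhg6, host of Snord87 at chr1:9941959-9944118 (minus), differed less. It had 19.8, 18.5 and 16.0 CPM in Astro and 32.1, 42.8 and 27.1 CPM in PAP. The groups did not overlap, and the means were 18.1 ± 1.93 and 34.0 ± 8.01 CPM (SD, n = 3). The log2 fold change of 0.91 ± 0.68 did not pass the test, with an adjusted p of 0.460 by edgeR. Snhg6 overlaps Mcmdc2, a gene of meiotic recombination that had 7 to 74 counts per library.

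Among the hosts of box H/ACA snoRNAs, Snhg8 had the largest fold. It hosts Snora24 and lies at chr3:123507552-123508404 (minus). It had 148, 80 and 92 counts in Astro of animals 1 to 3 and 193, 124 and 157 in PAP, so that the PAP libraries held more reads in all 3 animals despite their smaller totals. Scaled, these are 7.95, 4.69 and 4.67 CPM in Astro and 98.5, 63.9 and 51.9 CPM in PAP. The groups did not overlap, and animal 1 was highest in both. Mean levels were 5.77 ± 1.89 and 71.4 ± 24.2 CPM (SD, n = 3), a 12.3-fold difference. The log2 fold change was 3.63 ± 0.71 with an adjusted p of 0.0208 by edgeR, and the ratio within animals was 12.4, 13.6 and 11.1. With the animal as a block the log2 fold change was 3.62 ± 1.14 and the adjusted p 0.206 by edgeR. Without any single Astro library the adjusted p by edgeR was 0.0961 to 0.0989, again past the threshold in none of those fits, which called 0.881% to 1.05% of all genes higher.

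Snhg3, at chr4:132348014-132353686 (minus), hosts Snora73a and Snora73b, H/ACA snoRNAs that act in ribosomal RNA processing. It had 41.8, 33.3 and 28.7 CPM in Astro and 48, 68.6 and 74.7 CPM in PAP. The groups did not overlap, although PAP of animal 1 was near Astro of animal 1. The means were 34.6 ± 6.63 and 63.7 ± 14.0 CPM (SD, n = 3), and the log2 fold change of 0.88 ± 0.55 had an adjusted p of 0.360 by edgeR. Its value cannot be assigned to Snhg3 alone: 705 of its 986 exonic bases, 71.5%, are also exons of Gm17300 on the opposite strand. The counts of Gm17300, 738, 539 and 535 in Astro and 95, 133 and 221 in PAP, nearly equal the 778, 568 and 566 and the 94, 133 and 226 of Snhg3. The library kits do not record strand, so reads of the pair cannot be told apart. Snhg3 shares a further 13.7% of its exonic bases with Rcc1, the exchange factor of the nuclear transport GTPase Ran.

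Snhg12, at chr4:132308623-132311024 (plus), carries H/ACA snoRNAs such as Snora44 and the C/D snoRNA Snord99. It had 7.90, 6.46 and 4.82 CPM in Astro and 21.4, 0 and 14.2 CPM in PAP. PAP of animal 2 held 0 counts, which allows up to 1.55 CPM for counting error alone, while PAP of animals 1 and 3 were above every Astro library. The means were 6.39 ± 1.54 and 11.9 ± 10.9 CPM (SD, n = 3). Its log2 fold change of 0.89 ± 1.5 had an adjusted p of 0.771 by edgeR, and with the animal as a block it was 0.05. Without PAP of animals 1, 2 and 3 in turn it was 0.13, 1.41 and 0.68, with adjusted p of 0.962, 0.144 and 0.778 by edgeR. With voom it was -0.64.

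**Figure D2:**
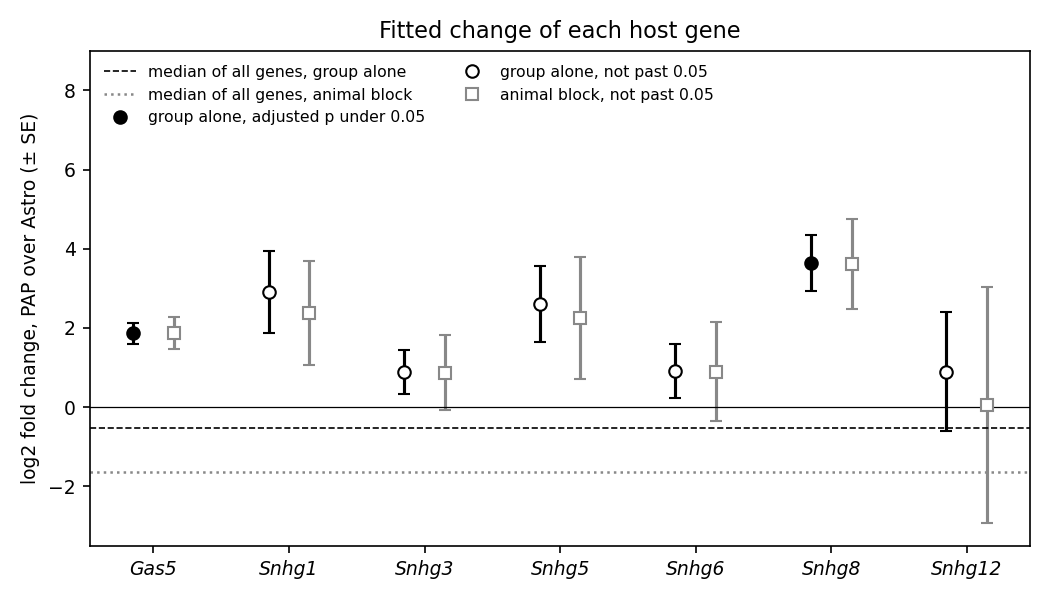
Fitted log2 fold change of PAP over Astro for each host gene (vertical axis, points with SE), with group alone (black) and with the animal as a block (grey), filled where the adjusted p is under 0.05; the dashed and dotted lines are the medians of all genes in each fit. Gas5 at 1.86 has the smallest error and Snhg8 at 3.63 the highest value, and with the block no point is filled.

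Levels between the host genes were compared per length, as RPKM (TMM-scaled CPM per kilobase of merged exons). In Astro, Gas5 with 37.1 ± 5.57 and Snhg3 with 35.1 ± 6.72 RPKM were highest and did not differ beyond their spread. The levels and ranks of Snhg3 here include reads that may belong to Gm17300. Snhg6 followed with 15.8 ± 1.68, then Snhg8 with 6.77 ± 2.21 and Snhg5 with 5.12 ± 1.21, which overlapped each other. Snhg12 with 2.66 ± 0.640 and Snhg1 with 2.51 ± 0.856 RPKM were lowest and also overlapped (SD, n = 3 throughout). In PAP, Gas5 led with 135 ± 7.57 RPKM, above every library of Snhg8 with 83.7 ± 28.4. Snhg8 and Snhg3, the latter with 64.6 ± 14.2 RPKM, did not differ beyond their spread, and the highest library of Snhg5 reached into the range of Snhg3. Snhg5 with 31.3 ± 24.0, Snhg6 with 29.7 ± 6.99, Snhg1 with 18.8 ± 20.4 and Snhg12 with 4.95 ± 4.54 RPKM formed the lower end, where each neighbour overlapped the next. Among 6561 noncoding genes ranked by RPKM, Gas5 was number 75 in Astro and number 19 in PAP. The rank of Snhg8 was 379 in Astro and 31 in PAP, that of Snhg3 81 and 42, and that of Snhg12 678 and 508. Only 2956 of these genes had counts in Astro and 1538 in PAP, so the ranks of the compartments are out of lists of different lengths and show no change. By the length of the longest transcript in place of merged exons, Gas5 stood at 54.5 RPKM and Snhg3 at 59.6 RPKM in Astro, so the order of these 2 turned. The order of Snhg3 and Snhg8 in PAP turned as well, at 110 and 92.0 RPKM.

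The snoRNAs themselves were almost unseen. GENCODE places 29 snoRNA entries, some of them annotated more than once, inside the 7 hosts on the same strand, each 60 to 205 bases long. Together they had 17, 11 and 20 counts in Astro of animals 1 to 3 and 9, 28 and 18 in PAP, 103 in all beside 17689 for the hosts. The 10 entries within Gas5 held 82 of them, of which 28 came from Snord78 in PAP of animal 2, and those of Snhg6 and Snhg8 held 0. Of the 29 entries, 26 lie wholly within exons of some annotated host transcript, so reads there could be counted to either gene or to none. How many reads of snoRNAs or kept introns the host values hold was not tested, and the counts here give no level of the snoRNAs.

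Other noncoding hosts showed values on both sides. Of 14 listed, 10 were found and tested: 4 were called higher and 1 lower, beside 5.92% and 15.4% of all genes. With the block 1 was called higher, beside 0.876% of all genes. Their median log2 fold change was 1.56, beside -0.53 over all genes. Snhg11, a host that GENCODE marks as protein-coding, was 17.9 ± 14.1 CPM in Astro and 968 ± 364 CPM in PAP, a difference of 5.76 ± 0.85 on the log2 scale at an adjusted p of 0.0196, and 0.0163 with the animal as a block, by edgeR. Zfas1, host of box C/D snoRNAs, rose by 3.59 on the log2 scale, from 9.55 ± 3.64 to 115 ± 74.9 CPM, with an adjusted p of 0.0208 by edgeR and 0.206 with the block. Epb41l4aos with 3.32 and Snhg15 with 3.03 were also higher, at adjusted p of 0.0283 and 0.0367 by edgeR, and 0.222 and 0.280 with the block. Snhg18 went the other way, from 10.6 ± 1.95 CPM in Astro to 0 counts in every PAP library, at least 6.8-fold lower against a floor of 3 counts per library. Its adjusted p was 0.0208 by edgeR and 0.206 with the block. Snhg4, Snhg7, Snhg10 and Snhg16 were not analysed here.

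Most protein-coding hosts of the translation machinery were called higher. Of 31 such genes, which carry snoRNAs in introns of ribosomal protein, elongation factor and related genes, 27 were called higher and 0 lower by edgeR, beside 5.92% and 15.4% of all genes. Their median log2 fold change was 3.36, beside -0.53 over all genes. With the animal as a block 20 of the 31 were called higher, beside 0.876% of all genes. At an unadjusted p under 0.05 the counts were 29 higher and 1 lower, beside 9.39% and 21.5% of all genes, and DESeq2 called 29 and 1, beside 11.5% and 23.6%. Rpl4, a protein of the large ribosomal subunit, had 357 ± 35.9 CPM in Astro and 5665 ± 1697 CPM in PAP. Eef2, the translocation factor of elongation, had 221 ± 33.1 and 3530 ± 972 CPM. The log2 fold changes of Rpl4, Eef2, Ncl (nucleolin) and Rps3 were 3.99, 4.00, 4.20 and 3.59, above that of Gas5 and near that of Snhg8. Over all 227 tested coding genes with an annotated snoRNA inside, 53 were called higher and 13 lower, beside 5.92% and 15.4% of all genes, with a median of 0.57 beside -0.53. With the block 30 were called higher and 0 lower, beside 0.876% and 0.0342% of all genes, and the median was -0.09 beside -1.63. With voom the median was -0.38 beside -1.62 over all genes.

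**Figure D3:**
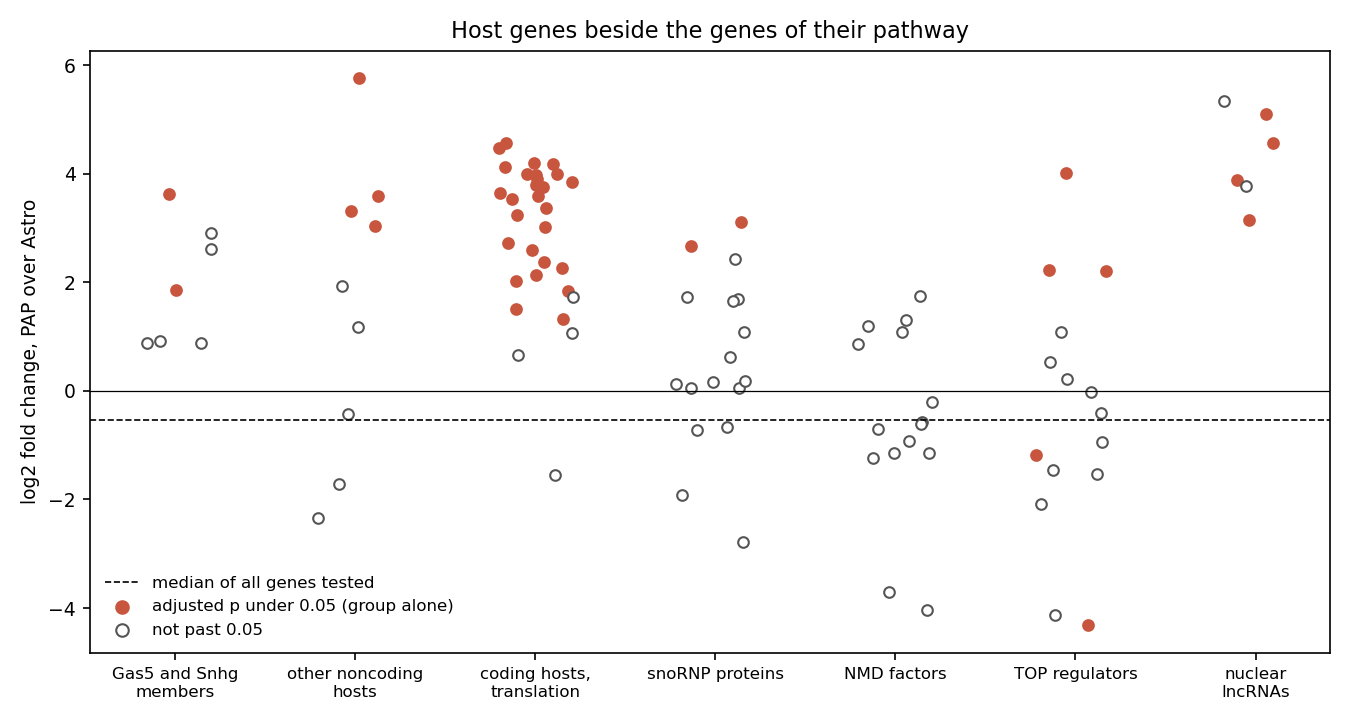
Log2 fold change of PAP over Astro (vertical axis) for each tested gene of the host genes and of 6 lists fixed for their pathway, filled where the adjusted p was under 0.05 with group alone; the dashed line is the median of all genes tested, horizontal position within a list carries no meaning, and Snhg18, at 0 in every PAP library, is left out. Of the 31 translation hosts 27 are filled, while decay factors lie on both sides of 0.

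The proteins that act on these RNAs mostly did not pass the test. Of 17 snoRNP proteins and assembly factors, 2 were called higher and 0 lower, beside 5.92% and 15.4% of all genes, with a median log2 fold change of 0.18 beside -0.53. These were Nhp2, a core protein of H/ACA particles, with 61.8 ± 2.46 CPM in Astro and 392 ± 159 CPM in PAP, and Nop58, a core protein of C/D particles, with 15.8 ± 5.82 and 137 ± 33.1 CPM. Their log2 fold changes were 2.67 and 3.11, both at an adjusted p of 0.0208 by edgeR, and at 0.133 and 0.206 with the block. Of 15 NMD factors 0 were called by edgeR in either direction, beside 5.92% and 15.4% of all genes, with a median of -0.61 beside -0.53. At an unadjusted p under 0.05 edgeR gave 0 higher and 1 lower, beside 9.39% and 21.5% of all genes. DESeq2 called 1 higher and 5 lower, beside 11.5% and 23.6%, and voom 0 and 2, beside 4.13% and 19.9%. The most abundant of them were Etf1, the release factor that ends translation, with a log2 fold change of 1.08 and an adjusted p of 0.262, and Rbm8a of the exon junction complex, with -0.61 and 0.352, by edgeR.

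Most regulators of TOP translation did not pass the test. Of 15, edgeR called 3 higher and 2 lower, beside 5.92% and 15.4% of all genes, with a median log2 fold change of -0.40 beside -0.53. With the block 0 were called, beside 0.876% of all genes higher and 0.0342% lower, and the median was -1.23 beside -1.63. Larp1, which binds TOP tracts at the cap, rose from 47.6 ± 10.2 to 220 ± 120 CPM, with a log2 fold change of 2.21 and an adjusted p of 0.0265 by edgeR. Eif4ebp1 and Eif4ebp2, inhibitors of the cap-binding protein eIF4E, had log2 fold changes of 2.23 and 4.02, each at an adjusted p of 0.0208 by edgeR. Cnbp, a nucleic acid binding protein that binds TOP mRNAs, went from 1092 ± 178 to 481 ± 171 CPM, with -1.18 and 0.0434. The other gene called lower, named after its value was seen, was Mtor, the kinase itself, with 218, 184 and 286 counts in Astro and 2, 1 and 1 in PAP, the latter all under the floor of 3 counts, at an adjusted p of 0.0210 by edgeR. With the block these 5 had adjusted p of 0.12 to 0.232 by edgeR.

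A list of noncoding RNAs that are kept largely in the nucleus was read in the same libraries. Of 8 listed, 6 were tested, 4 were called higher and 0 lower by edgeR, beside 5.92% and 15.4% of all genes. With the block 2 were called, beside 0.876% of all genes higher, and without each Astro library in turn 1 was called, beside 0.881% to 1.05%. The log2 fold changes were above 0 in all 6 tested, with a median log2 fold change of 4.23, above that of the host genes. All 6 had an unadjusted p under 0.05, beside 9.39% of all genes higher, and DESeq2 called 6, beside 11.5%. Malat1, of nuclear speckles, went from 222 ± 55.8 to 3281 ± 1776 CPM and Meg3 from 14.8 ± 5.48 to 506 ± 113 CPM. Their log2 fold changes of 3.89 and 5.09 had adjusted p of 0.0168 and 0.00290 by edgeR, and both 0.0204 with the block. Neat1, of paraspeckles, had 3.14 and Miat 4.57, at adjusted p of 0.0208 and 0.0211 by edgeR, both 0.206 with the block. The part of nuclear RNA in the host gene values was not tested.

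Noncoding RNAs with a TOP-like run were counted over the whole annotation, a count added after the data had been seen. Of 1224 noncoding genes tested, 53 (4.33%) were called higher and 268 (21.9%) lower, with a median log2 fold change of -0.78. Of the 72 with a run at any annotated transcript start, 8 (11.1%) were called higher and 11 lower, with a median of -0.05. Those 8 were Gas5, Snhg8, Zfas1, Meg3, Miat, Platr27, Gm10076 and Gm26885, of which Meg3 and Miat are also in the nuclear list. Without the 7 hosts themselves, 66 with a run were tested, of which 6 (9.09%) were called higher and 11 lower, with a median of -0.25. Of the 85 tested noncoding genes that GENCODE tags as hosts of small RNAs, 14 (16.5%) were called higher and 17 lower, with a median of 0.59; without the 7 hosts these were 12 of 78 and 17, with a median of 0.30. Among ribosomal protein genes, 34 of 83 held the run at an annotated start and 33 of these 34 were called higher, with a median of 3.31. Of the ribosomal protein genes with no run at any annotated start, 46 were tested and 42 were called higher, with a median of 2.95. Over all genes, those with the run at any start numbered 1459, of which 114 (7.81%) were called higher, beside 5.91% of all annotated genes tested. No test of these differences was made.

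The genes whose pattern over the 6 libraries was most like the mean of the host genes were Klc3, Gm16312, Timm29, Dnph1 and Erich3. Their Pearson correlations with the mean standardised log2(CPM + 1) of the hosts were 0.996, 0.995, 0.994, 0.993 and 0.993, over 6 libraries and out of 9967 candidate genes. Timm29, an import protein of the inner mitochondrial membrane, had 156 ± 10.9 CPM in Astro and 260 ± 20.7 CPM in PAP. Dnph1, a nucleotide hydrolase, had 7.66 ± 1.45 and 51.3 ± 8.29 CPM. The points share their library totals and fall into the 2 compartments, so the correlations describe little beyond the split between Astro and PAP.

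**Figure D4:**
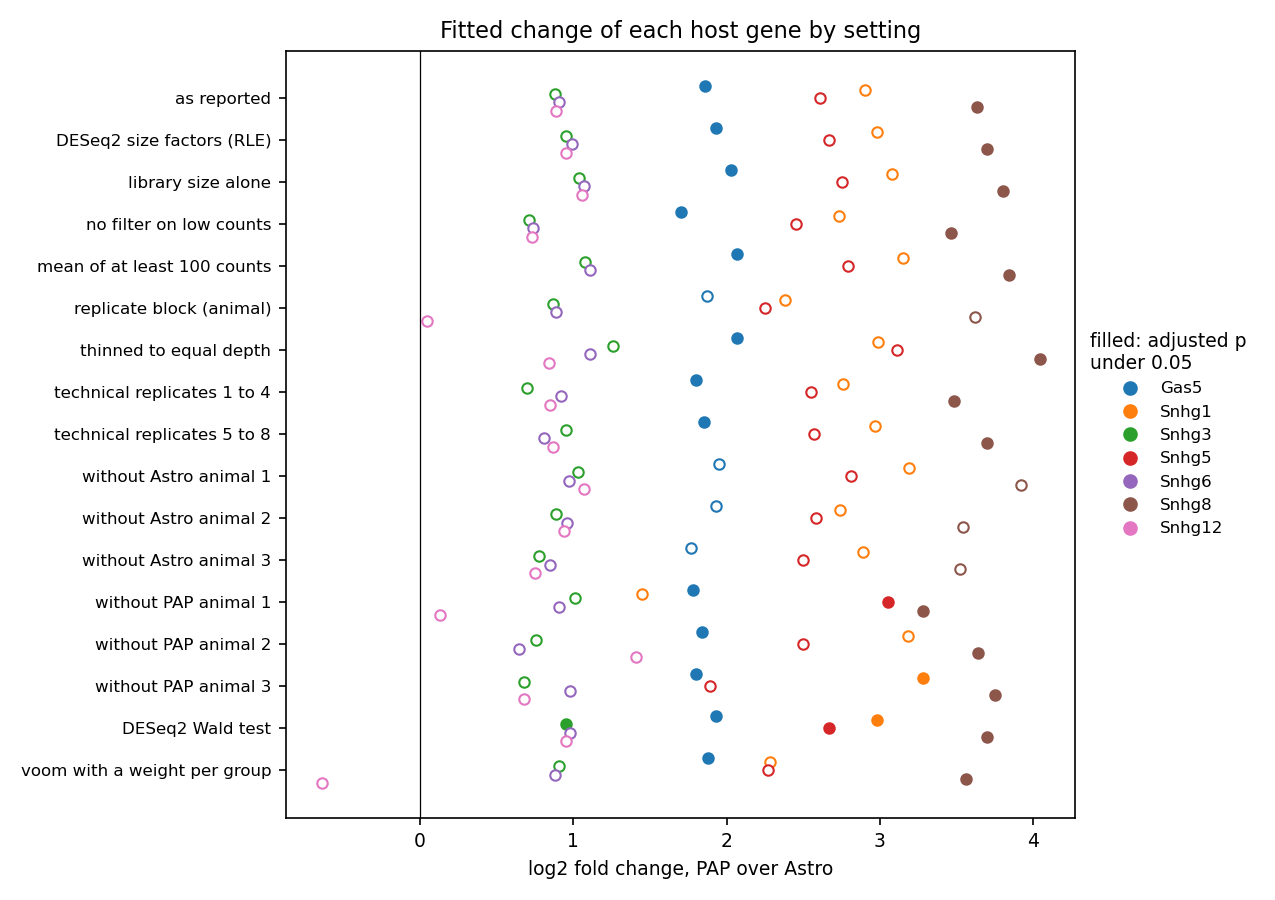
Log2 fold change of PAP over Astro (horizontal axis) of each host gene (colours) as reported and under 16 other settings of scaling, filter, test, depth, technical replicates and left-out libraries (vertical axis), filled where the adjusted p was under 0.05. Gas5 stays between 1.70 and 2.07 and Snhg8 between 3.28 and 4.04, and each is filled in 12 of the 16; Snhg12 is below 0 with voom and absent at a mean of at least 100 counts.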

How the data were processed

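The deposited values are raw gene counts, whole numbers with no scaling by the authors, from 48 samples (3 animals, 2 compartments, 8 technical replicates). Per the submitters' processing notes, bcl2fastq 2.18.0.12, Trim Galore 0.4.1, STAR 2.5.2b, SAMtools and HTSeq 0.5.3 were used, with the build mm10. The annotation, the strand setting and the handling of overlapping genes are not given in the sources used here. Per the labels' protocols, RNA was amplified with SMART-Seq v4 and libraries were made with Nextera XT; no molecular identifiers are mentioned, so floors of 3 counts cover counting error only.

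Symbols, positions and exon lengths came from GENCODE M21 (GRCm38), which held 47224 of the 47643 IDs with 99.9% of the counts. Within technical replicates 1 to 4 and 5 to 8 of a library the dispersion index was 1.01 to 1.04, where counting noise gives 1; between the sums of these sets it was 1.37 to 3.38. The 8 were summed, so n = 3 animals. The p-values of the fit on group alone treat the 6 libraries as independent. They rest on a spread per gene that is shared by both compartments. The biological coefficient of variation was 0.335 among Astro and 1.61 among PAP libraries, so that shared spread mixes unequal groups.

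PAP was compared with Astro in R 4.3.3 with edgeR 4.0.16: filterByExpr (minimum count 10), TMM scaling, the quasi-likelihood test on group alone over 14618 genes, and Benjamini-Hochberg adjustment at 0.05. The labels give the same animal identifier to an Astro and a PAP library, so the compartments are paired by animal, so the animal was also fitted as a block. Deviations of same-animal libraries from their group means correlated at 0.033, 0.018 and -0.027. DESeq2 and limma 3.58.1 (voom) were alternatives, with other scalings, filters, thinned depth, subsets of technical replicates and left-out libraries. The fit on group alone was tested on simulated data. Few of the changed genes, raised or lowered, were recovered at the spread estimated from these libraries, and most at a much smaller spread. A host that did not pass the test is thus not shown to be unchanged.

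The host genes and lists were chosen with earlier results of these data known. Named are the host genes, up to 4 called genes of each list by mean CPM (the 2 most abundant where none was called), the 5 genes most correlated with the hosts among those with a mean of at least 10 CPM, and genes that overlap a host or start within 1 kb of it.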

Additional observations from a re-analysis of the deposited data

How the results depend on the processing

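The number of host genes called, 2, fell to 0 with the animal as a replicate block and rose to 5 with DESeq2 (Gas5, Snhg1, Snhg3, Snhg5 and Snhg8), where the share of all genes called higher was also larger, 11.5%. Leaving out 1 library gave 0 to 3 host genes. Without each Astro library in turn it was 0, where 0.881% to 1.05% of all genes were called higher, without PAP of animal 1 it was 3 with Snhg5 added, and without PAP of animal 3 it was 3 with Snhg1 added. The other scalings, filters, voom, thinned depth and subsets of technical replicates gave 2. The log2 fold change of Snhg12 reversed to -0.64 with voom. No other host gene reversed in the 16 alternatives, of which Snhg12 could be tested in 15. The cause of these changes was not tested.

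Counts of called genes ranged from 0 to 7 for other noncoding hosts, 18 to 30 for coding hosts of the translation machinery, 0 to 5 for snoRNP proteins, 0 to 6 for NMD factors, 0 to 7 for TOP regulators, 1 to 7 for nuclear RNAs and 26 to 104 for all annotated coding hosts, where 66 were reported. The calls over all genes moved widely too. They were 114 higher and 1 lower of 12938 tested without Astro of animal 1. With DESeq2 they were 1685 and 3456 of 14618. Scaling by library size alone moved the median of all genes from -0.53 to -0.37. Relative to that median the log2 fold change of Gas5 was 2.39 as reported and 2.40 by library size, and that of Snhg8 4.15 and 4.17, as a scaling moves all genes nearly alike. With the block these were 3.51 and 5.25, against a median of -1.63. Thinning to equal depth changed the split of all calls from 865 higher and 2250 lower of 14618 tested (5.92% and 15.4%) to 723 and 965 of 11212 (6.45% and 8.61%). The floor of 3 counts, 0.991 to 1.55 CPM in PAP, bears on Snhg12 in PAP of animal 2; every other PAP value of a host rests on at least 21 counts.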
